A study of Bos grunniens with 6 samples.

Results

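Chromosomes 19, 20 and 26 carried the highest density of m6A peaks among the 29 autosomes of the yak, and the peaks on these 3 chromosomes are described here. They were chosen by their peaks per Mb, so the density itself is a description and not a finding. Of the 16318 peaks in the deposited comparison of juvenile and sexually mature testis, 2387 (14.6%) lay on them, with 873 on chromosome 19, 961 on chromosome 20 and 553 on chromosome 26, on 1340 genes. The other 26 autosomes held 13312 peaks, and 619 peaks lay on X, Y and unplaced scaffolds. The Y6M group was testis of 3 male yaks 6 months old, before sexual maturity, and the Y30M group was testis of 3 male yaks 30 months old. All animals were healthy and came from one area, and the labels name no treatment or genetic change. Testis RNA with a poly(A) tail was fragmented and precipitated with an antibody against m6A (MeRIP-seq), and an input library without the antibody was sequenced for each animal.

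N6-methyladenosine (m6A) is a methyl mark on adenosines inside mRNA. A methyltransferase complex around METTL3 and METTL14 writes it in a short sequence context, the demethylases FTO and ALKBH5 remove it, and reader proteins such as those of the YTH family bind it and affect splicing, translation and decay of the transcript. In the testis, germ cells pass from spermatogonia through meiosis to spermatids, and many transcripts made early in this sequence are stored and used later.

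A peak is a stretch of transcript in which IP reads exceeded input reads. It is given as 1 or more exon blocks, and its span runs from the first to the last block and includes the introns between them. Peaks were called over the 3 animals of a group or over both groups, so a peak value has no replicate spread, and its read depth is not known. Expression was given per animal, as FPKM, a fragment count normalised to gene length and library depth, in the input library. The gene symbols gathered from the supplementary annotation covered 191 of the 1340 genes, 94 on chromosome 19, 97 on chromosome 20 and 0 on chromosome 26. Of the 191 genes, 189 carried a differentially methylated peak, so the named genes are a selected set and stand for themselves only. Among the germ cell and somatic markers with a symbol, *SYCP3* of spermatocytes had 1.91, 1.97 and 5.27 FPKM in Y6M against 15.8, 7.18 and 31.4 FPKM in Y30M. *MLH3*, which also acts in meiosis, had 2.92, 2.72 and 4.31 FPKM in Y6M against 5.58, 3.86 and 11.6 FPKM in Y30M, with overlap, and did not pass. *GSG1* of spermatids had at most 1.09 FPKM in Y6M and at least 442 FPKM in Y30M. Bulk testis RNA does not tell apart fewer cells of a type and less RNA per cell.

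The 3 chromosomes took up 7.03% of the length of the autosomes, with the length of a chromosome counted up to its last peak. Chromosome 20 had 13.5 peaks per Mb, chromosome 19 had 13.3 and chromosome 26 had 11.6. By count alone chromosome 8 was first, with 981 peaks. The nearest chromosomes outside by density were 8, with 8.13 peaks per Mb, and 24, with 8.10, and the median of the other autosomes was 5.48. Genes with a peak were dense in the same way, at 7.60 per Mb on chromosome 19, 7.33 on chromosome 20 and 6.62 on chromosome 26, against at most 4.40 on chromosome 24 among the others. Pooled, the 3 chromosomes had 2.37 times the peaks per Mb of the other autosomes, 2.49 times the genes with a peak per Mb, and 0.949 times the peaks per gene. Over the 29 autosomes the density of peaks and the density of genes with a peak went together (Spearman correlation of 0.98, a description over chromosomes that share libraries and peak calls). Merged exon blocks of peaks covered 5.20, 5.74 and 4.89 kb per Mb on chromosomes 19, 20 and 26, against 3.26 kb per Mb on chromosome 24, the highest of the others.

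**Figure D1:**
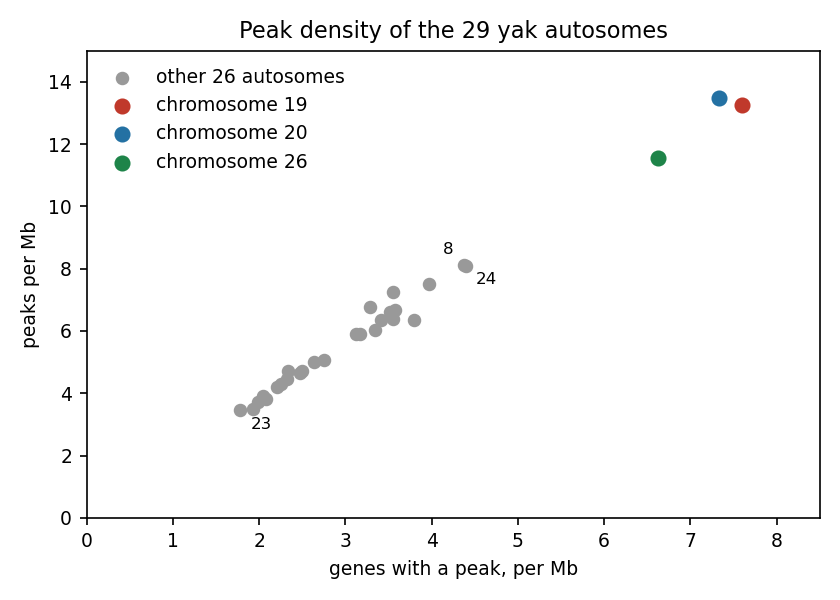
Peaks per Mb (y axis) against genes with at least 1 peak per Mb (x axis) for the 29 autosomes; each point is a chromosome, and chromosomes 8, 23 and 24 are marked by number. Chromosomes 19, 20 and 26 lie at 11.6 to 13.5 peaks per Mb, and the other 26 autosomes at 3.46 to 8.13.

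The peaks were not spread evenly along the chromosomes. In windows of 1 Mb, 46 of 186 windows (24.7%) on chromosomes 19, 20 and 26 held 20 or more peaks, against 84 of 2461 (3.41%) on the other autosomes, and 11.8% of windows against 24% held none. These differences from the other autosomes follow from the choice by peaks per Mb and are not a separate finding. The fullest window lay on chromosome 26 from 17000001 to 18000000, with 56 peaks on 29 genes. On chromosome 20, the window from 53000001 to 54000000 held 49 peaks on 16 genes. Chromosome 19 was filled more evenly, with 3 empty windows of 66, a median of 12 peaks per window and a maximum of 35. Windows as full also occurred elsewhere, since a window on chromosome 18 held 51 peaks.

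The number of peaks on a gene was not higher on the dense chromosomes. Genes with a peak had 1.73 peaks on average on chromosome 19, 1.77 on chromosome 20 and 1.73 on chromosome 26, and the means of the other autosomes ran from 1.66 to 2.05 with a median of 1.86. Of the 1340 genes, 731 (54.6%) had a single peak, 595 had 2 to 5 peaks and 14 had 6 or more. A further 48 peaks had no gene in the table, 36 of them on chromosome 20, which was the highest number among the autosomes. Exon blocks shared with a peak of another row occurred in 39 peaks of chromosome 20 (4.06%), 18 of chromosome 26 (3.25%) and 10 of chromosome 19 (1.15%). Whether the overlapping rows belonged to different genes or strands was not checked, and their reads were not told apart here.

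Among genes with a symbol, *ZFHX3* on chromosome 20, a zinc finger and homeobox transcription factor, carried the most peaks, 12 of them between 7775354 and 7973272. They fell into a group of 4 between 7775354 and 7788295, a peak of 3 blocks from 7801228 to 7827070 and a group of 7 between 7965247 and 7973272. Fold enrichment ran from 3.24 to 3.88 in the first group and from 1.72 to 2.96 in the last. The peak between them, at 2.11-fold, was the single differentially methylated peak of the gene and lower in Y30M (log2 fold change -0.70). *BRCA1* on chromosome 19, which acts in repair of DNA double-strand breaks, had 7 peaks, each with an FDR of 1 for its own enrichment, and 4 of them lay within a stretch from 22818101 to 22820896. The longest of these, 1348 bp from 22818350, was enriched 4.18-fold with a log2 fold change in methylation of -0.01, whereas the next, from 22819897 to 22820196, was hypermethylated with a log2 fold change of 1.03. *TNRC6C*, a scaffold protein of microRNA silencing, had 7 peaks, *CHD9*, a chromatin remodeller, had 7, and *PLEKHM1*, an adaptor of lysosome fusion, had 6. *ARHGAP35*, a GTPase-activating protein, was named with 5 peaks and the longest summed blocks of the genes tied at that number. In *CHD9*, 2 neighbouring peaks between 26263112 and 26283212 were hypermethylated, with log2 fold changes of 0.82 and 0.64. Peaks of 1 gene share its input reads.

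Exon block length hardly differed from the rest. The summed exon blocks of a peak had a median of 289 bp on chromosome 19, 299 bp on chromosome 20 and 297 bp on chromosome 26, against 296 bp over all peaks and 249 to 300 bp among the other autosomes. The upper quartile was 450 bp on chromosome 19 and reached 543 bp on chromosome 26, where 1 other autosome was higher. What differed was the number of blocks. A single block made up 59.1% of the peaks of chromosome 20 and 53.2% of those of chromosome 26, while chromosome 19 (47.1%) lay near the median of the other autosomes (47.0%, range 36.4 to 54.7%). Chromosome 20 also had the fewest blocks per peak of the 29 autosomes, with a mean of 1.76. From the first to the last block, the median span was 639 bp on chromosome 19, 495 bp on chromosome 20 and 580 bp on chromosome 26, against 812 bp as the median of the other autosomes, of which 2 had a shorter span than chromosome 19 and 0 a shorter one than chromosome 20 or 26.

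Fold enrichment over input differed among the 3 chromosomes in opposite directions. Its median was 2.24 on chromosome 19, lower than on 23 of the other autosomes, 2.32 on chromosome 20, and 2.43 on chromosome 26, which was the highest of all autosomes. Chromosome 28 followed closely, at 2.425. The median over all peaks was 2.31, and pooled over the 3 chromosomes it was also 2.31. Of the members, 1682 (70.5%) had an FDR of at most 0.05 for their own enrichment, against 69.0% of all peaks, and the share was 70.7% on chromosome 19, 70.9% on chromosome 20 and 69.4% on chromosome 26. This FDR was not a measure of a single peak alone, because 194 of the 609 member genes with 2 or more peaks had the same FDR at all their peaks. An FDR of 1 was given to 626 members (26.2%), 373 of which were enriched at least 2-fold.

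The 4 named peaks with the highest enrichment at that FDR lay in *SF3B3*, *KMT2B*, *USP10* and *RAI1*. The peak of *SF3B3*, a subunit of the spliceosome, ran from 49053687 to 49055243 on chromosome 20 with 250 bp in 3 blocks, and was enriched 8.67-fold and hypermethylated in Y30M (log2 fold change 0.66). It did not overlap a peak of the Y6M list. The peak of *KMT2B*, a histone H3 lysine 4 methyltransferase, had 1001 bp in 3 blocks from 70101206 to 70103570 and a 5.30-fold enrichment, with a log2 fold change of 0.02. The peak of *USP10*, a deubiquitinase, was a single block of 844 bp from 38536172, enriched 5.08-fold and hypermethylated (0.63). In *RAI1* on chromosome 19, a chromatin-associated regulator of transcription, a single block of 2693 bp from 32480593 to 32483285 was enriched 4.97-fold and hypermethylated (0.61). Inside that block 41 adenosines were scored in Y6M and 26 of them were predicted as m6A sites. In expression, tested as described further on, *RAI1* was lower in Y30M and *KMT2B* and *SF3B3* did not pass. *USP10* was lower at an adjusted p of 0.0521 in limma, and its call was lost in TPM and without any of 3 single libraries.

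**Figure D2:**
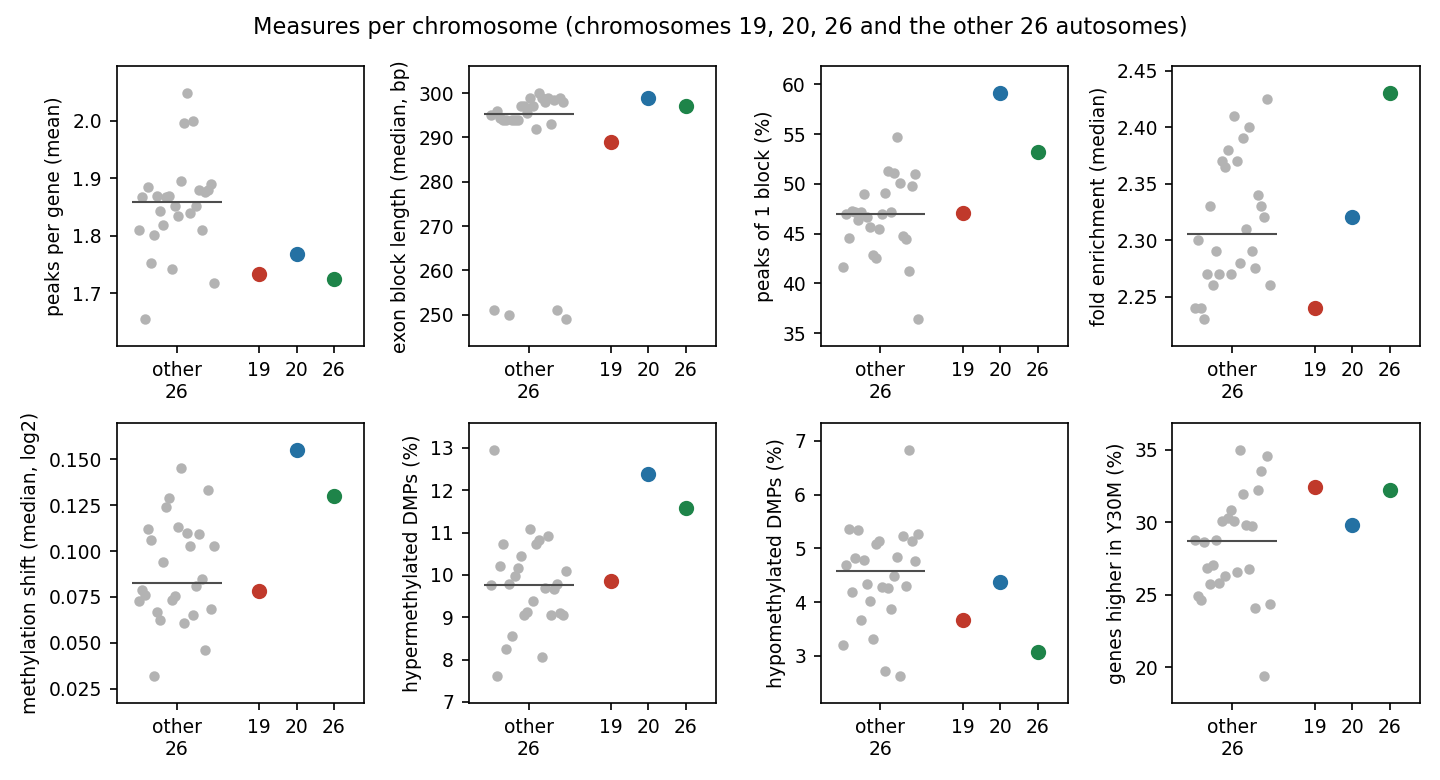
Measures of the peaks and their genes per chromosome, with 1 panel for each measure and its unit on the y axis; grey points are the other 26 autosomes, the line is their median, and coloured points are chromosomes 19, 20 and 26. Chromosome 20 stands above all others in peaks of 1 block (59.1%) and in median methylation shift, and chromosome 26 in median fold enrichment (2.43), while chromosome 19 lies within the range of the others in all 8 panels. In fold enrichment chromosome 28 is close to chromosome 26, at 2.425.

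The methylation shift is the log2 fold change of Y30M against Y6M that the peak caller gave, positive for more methylation in Y30M. It had a median of 0.08 on chromosome 19, 0.155 on chromosome 20 and 0.13 on chromosome 26, against 0.09 over all peaks. The medians of the other autosomes ran from 0.03 to 0.145, so chromosome 20 was the highest and chromosome 19 lay below their median of 0.08. Shifts above 0 made up 57.8% of the peaks on chromosome 19, 63.2% on chromosome 20 and 60.6% on chromosome 26, against 58.5% of all peaks. The shift is 1 value per peak for the whole comparison, and no test between chromosomes was possible.

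Differentially methylated peaks (DMPs) were those with a MeTDiff p of at most 0.05 that differed by at least 1.5-fold. Of the 2387 members, 269 (11.3%) were hypermethylated in Y30M, against 10.2% of all peaks, and 91 (3.81%) were hypomethylated, against 4.34% of all peaks. This p is unadjusted, and with a MeTDiff FDR of the difference of at most 0.05 in its place, 235 and 68 were left. Chromosome 20 had 119 hypermethylated peaks (12.4%, 95% Wilson interval 10.4 to 14.6%) and 42 hypomethylated ones (4.37%). Chromosome 26 had 64 hypermethylated peaks (11.6%, 9.17 to 14.5%) and 17 hypomethylated ones (3.07%), and chromosome 19 had 86 (9.85%, 8.05 to 12%) and 32 (3.67%). These intervals cover counting error only, and those of the 3 chromosomes overlap each other and include the share of all peaks, except that of chromosome 20, which starts above it. On chromosome 2 the hypermethylated share was higher, at 12.9%. The DMPs lay on 304 of the 1340 genes, a share close to that of the other autosomes, where they lay on 1590 of 7129 genes.

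The direction of the shift went with the form of a peak. Peaks of a single block had a median shift of 0.22 and 14% hypermethylated peaks on the 3 chromosomes, against 0.21 and 13.8% on the other autosomes. Peaks of 2 to 4 blocks had a median shift of 0.04 with 9.02% hypermethylated, against 0.01 and 6.97%. Of the 116 peaks with 5 or more blocks, 1 was hypermethylated (0.862%) and 2 were hypomethylated (1.72%), against 2.31% and 3.14% on the other autosomes. In the middle class, 12% of the peaks of chromosome 20 were hypermethylated, 9.57% of those of chromosome 26 and 6.10% of those of chromosome 19, a difference that was not tested. The members were also split by the Y6M list, which is not independent of the shift, since a peak that was not called in Y6M tends towards higher values in Y30M. Of all members, 1788 (74.9%) overlapped a peak of the Y6M list, with a median shift of 0.08, 123 hypermethylated and 79 hypomethylated peaks. The 599 members without a Y6M peak had a median shift of 0.28, with 146 hypermethylated and 12 hypomethylated peaks. On the other autosomes the 10053 peaks with overlap had a median shift of 0.06 with 701 and 484 such peaks, and the 3259 without overlap had 0.21 with 608 and 106. By position, the window on chromosome 20 from 53000001 to 54000000 had 12 hypermethylated peaks and 1 hypomethylated peak at a median shift of 0.32, while the fullest window, on chromosome 26, had 5 and 2 at a median shift of 0.02.

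Among named genes with a significant own enrichment, the largest shifts upwards lay in *LRRC45*, *DNAI2*, *PGS1*, *EMP3* and *SIPA1L3*. *LRRC45*, a protein of the centrosome linker, had 4 peaks close together on chromosome 19, of which the third, from 14270620 to 14271259, had a log2 fold change of 2.01, whereas the others lay between -0.14 and 0.06. *DNAI2*, an intermediate chain of the outer dynein arm of sperm tails and cilia, had a peak at 7247436 to 7252808 with a log2 fold change of 2.0 and a second peak at 7278305 with 0.04. *PGS1*, an enzyme of cardiolipin synthesis, carried 2 such peaks, with log2 fold changes of 1.99 and 1.81 on neighbouring blocks, and all 5 of its peaks were above 0. *EMP3*, a membrane protein, had a single peak at 1.91. *SIPA1L3*, which acts in cell polarity, had 3 DMPs among its 5 peaks, at 1.62, 0.64 and -0.81, the last with a MeTDiff FDR of the difference of 0.116.

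The largest shifts downwards lay in *GSDMA* (-1.51), *STAT3* (-1.47), *DEDD2* (-1.16), *PROSER3* (-1.08), *ALKBH6* (-0.95) and *ACSF3* (-0.93). The MeTDiff FDR of the difference was 0.106 in *GSDMA* and 0.0776 in *ACSF3*, so these passed on the unadjusted p only. The peak of *STAT3*, a transcription factor of cytokine signalling, had 151 bp in 3 blocks from 23617050 to 23617579 on chromosome 19 and was enriched 1.36-fold. *GSDMA*, a pore-forming gasdermin, had 0.511, 0.0661 and 0.328 FPKM in Y6M against 0.328, 0.243 and 0.196 FPKM in Y30M. Its shift therefore rests on an expression level below 1 FPKM in all 6 libraries. The peak of *DEDD2*, a death effector domain protein, had 148 bp and was enriched 1.25-fold, and its other peak, enriched 3.91-fold, had a shift of 0.20. Fold enrichment at these 6 peaks lay between 1.25 and 1.69, below the median of 2.31.

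The Y6M site list scored adenosines over the whole span of each Y6M peak and called a site at a score of at least 0.528. On the 3 chromosomes 47724 of 187338 scored adenosines (25.5%) were called, against 21.2% on the other autosomes. The share was 24.3% on chromosome 19, 26.1% on chromosome 20 and 26.4% on chromosome 26, and among the other autosomes only chromosome 29, with 26.9%, was above chromosomes 20 and 26. Because the spans include introns, the adenosines were split by exon block. Inside the blocks of the compared peaks, 43.8% of 12545 adenosines were called, against 40.6% on the other autosomes, and outside them 24.2% against 20.3%. Chromosome 19 had the highest share of all autosomes inside blocks, 46.5% (95% Wilson interval 45.1 to 48.0%), chromosome 26 had 43.8% (42.1 to 45.6%) and chromosome 20 had 41.4% (40.04 to 42.8%), with 11 of the other autosomes above chromosome 20. Chromosome 29 had 46.1% (43.1 to 49.2%), an interval that includes the share of chromosome 19. The intervals cover counting error only, and adenosines of a peak are not independent. Outside blocks chromosome 19 was the lowest of the 3, with 25.4% on chromosome 26, 24.7% on chromosome 20 and 22.8% on chromosome 19. Chromosome 29 also had 25.4% outside blocks.

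**Figure D3:**
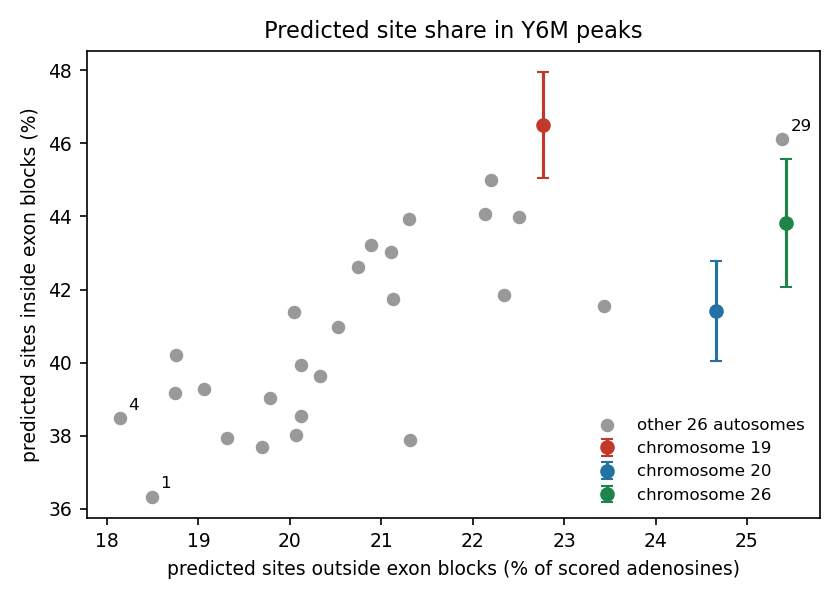
Share of scored adenosines called as m6A sites inside exon blocks (y axis) against the share outside them (x axis), in percent, in the Y6M peaks of the 29 autosomes; bars on chromosomes 19, 20 and 26 are 95% Wilson intervals, and chromosomes 1, 4 and 29 are marked by number. Chromosome 19 is highest on the y axis (46.5%) and chromosome 26 on the x axis (25.4%). Chromosome 29 lies close to both, at 46.1% and 25.4%.

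Pooled, the higher share of sites did not come with more sites per length, but the chromosomes differed. Exon blocks on the 3 chromosomes held 12.7 scored adenosines and 5.58 called sites per kb, against 14.1 and 5.72 per kb on the other autosomes. Chromosome 19 had 6.18 sites per kb and chromosome 26 had 5.74. Chromosome 20 was low on both, with 12.04 scored adenosines and 4.99 sites per kb, the second lowest of the 29 autosomes for each. Adenosines inside blocks made up 6.70% of those scored on the 3 chromosomes and 4.20% on the others. About 3 in 4 compared peaks overlap the Y6M list, and a block without a Y6M peak counts in the length and not in the sites.

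Genes with a peak on the 3 chromosomes had a median level of 10.1, 10.3 and 9.66 FPKM in the Y6M libraries and 14.2, 10.7 and 10.9 FPKM in the Y30M libraries, over 1318 genes. The groups did not overlap, but Y30M replicate 1 stood above the rest. For the other autosomes the medians were 8.36, 8.69 and 10.6 FPKM in Y6M against 10.4, 7.68 and 11.2 FPKM in Y30M. The ratio of the 2 medians was 1.20 and 1.19 in Y6M replicates 1 and 2 and 0.91 in replicate 3, and 1.37 and 1.39 in Y30M replicates 1 and 2 and 0.97 in replicate 3. At the same replicate number the ratio was higher in Y30M, but the ages were different animals and the labels do not pair them. Taken unpaired, the groups overlapped, since the ratio in Y30M replicate 3 lay below that in Y6M replicates 1 and 2. Both statements held on each of chromosomes 19, 20 and 26. Replicate 3 was below the other replicates of its group at both ages. The part of replicate 3 in the results on expression was not tested beyond leaving it out. By chromosome, genes of chromosome 19 had a level of 11.5 ± 0.377 FPKM in the Y6M libraries, with 14.1 ± 2.51 FPKM in the Y30M libraries, those of chromosome 26 had 11.3 ± 0.856 and 13.4 ± 2.48 FPKM, and those of chromosome 20 had 7.68 ± 0.390 and 8.80 ± 1.46 FPKM (mean ± SD of the library medians, n = 3). The genes of chromosome 20 were below those of the other autosomes in 6 of 6 libraries, and those of chromosome 19 were above them in 6 of 6.

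**Figure D4:**
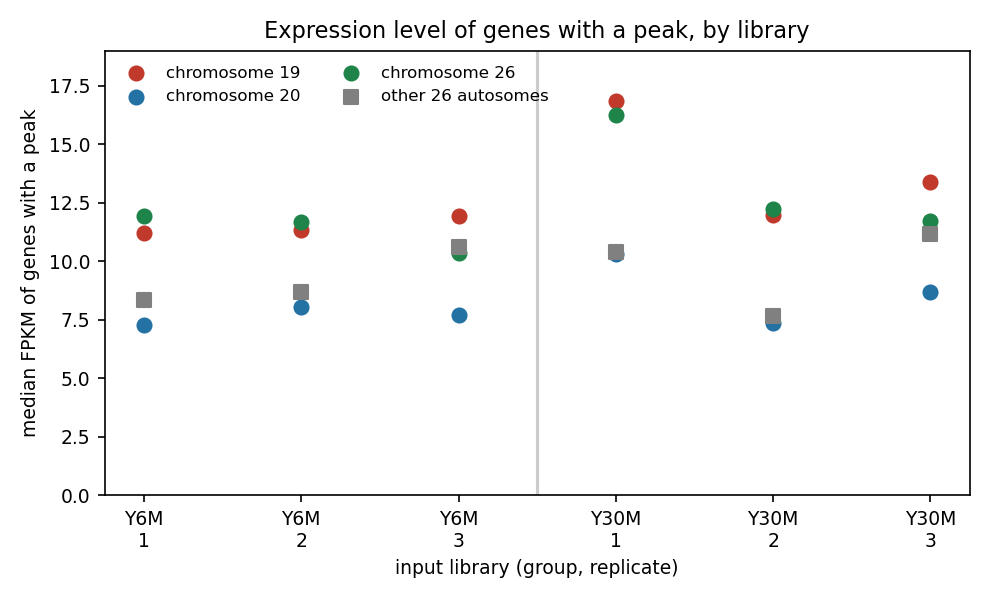
Median FPKM (y axis) of the genes with a peak in each of the 6 input libraries (x axis), for chromosomes 19, 20 and 26 and for the other 26 autosomes. In replicate 3 of both groups the grey square of the other autosomes, at 10.6 and 11.2 FPKM, lies close to chromosome 26, which it exceeds in Y6M.

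Expression was compared between the ages with limma on log2(FPKM + 1) over 19477 genes, and a gene passed when its p was at most 0.05 and it differed by at least 1.5-fold. SE is the standard error of the log2 fold change. Of the 1340 genes with a peak on the 3 chromosomes, 22 were not in the expression table, 6 were at 0 in all libraries and 1312 were tested. Expression was higher in Y30M for 412 of them (31.4%), against 27.6% of all genes tested, and lower for 281 (21.4%), against 19%. Genes with a peak on the other autosomes, 6988 tested, gave 28.3% and 24.4%. By chromosome, 161 rose and 118 fell of 496 on chromosome 19, 151 and 104 of 506 on chromosome 20, and 100 and 59 of 310 on chromosome 26. With a Benjamini-Hochberg adjusted p of at most 0.05 in place of the p, 361 and 233 were left. The median log2 fold change was 0.13 on the 3 chromosomes and 0.01 for the peak genes of the other autosomes, a difference of 0.12. That difference rested on single libraries: it was 0.01 without Y6M replicate 3, 0.06 without Y30M replicate 1, 0.05 without Y30M replicate 2 and 0.23 without Y30M replicate 3. Without replicate 3 of both groups it was 0.10, with 402 genes higher and 253 lower.

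Of 33 listed genes of sperm and spermatids, 5 had a symbol and a peak here, on chromosome 19, and 4 of the 5 rose and 0 fell. Of all 191 genes with a symbol, 66 rose and 46 fell. The median log2 fold change of the 5 was 1.86, against 0.04 over all genes tested. *DNAI2* had 1.04, 1.28 and 0.386 FPKM in Y6M against 19.02, 27.6 and 16.9 FPKM in Y30M, so the groups were far apart (log2 change 3.54, SE 0.34, limma, adjusted p = 1.88e-04). *ODAD4*, a docking factor for outer dynein arms, rose from 1.15, 1.28 and 2.10 FPKM to 21.4, 35.7 and 34.0 FPKM (3.63, SE 0.31). *CCDC103*, an assembly factor of dynein arms, rose from 1.21 ± 0.364 to 7.15 ± 2.02 FPKM (SD, n = 3 each), and *DNAH9*, a heavy chain of the outer arm, from 0.499 ± 0.163 to 3.90 ± 0.467 FPKM. Each of these 4 genes carried a hypermethylated peak, with log2 fold changes of 2.0 in *DNAI2*, 0.88 in *ODAD4*, 0.81 in *CCDC103* and 0.84 and 0.74 in *DNAH9*. Such a peak follows largely from the naming, since 189 of the 191 genes with a symbol carried a DMP. Of all member DMPs, 74.7% were hypermethylated. *SPAG9*, a scaffold protein of JNK signalling, had 11.4 ± 2.81 and 17.7 ± 3.74 FPKM and did not pass (adjusted p = 0.114), although it passed when replicate numbers were blocked.

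In the list of meiosis and repair, 3 of 29 genes had a symbol and a peak, and 2 rose. Of the 191 genes with a symbol 66 rose, and of all genes tested 27.6%. *BRCA1* had 1.55, 1.99 and 3.57 FPKM in Y6M against 12.5, 9.48 and 15.1 FPKM in Y30M, with no overlap (log2 fold change 2.01, SE 0.34, limma, adjusted p = 0.00270). *CDC6*, a licensing factor of DNA replication, had 0.436, 0.812 and 1.79 FPKM in Y6M against 3.34, 1.78 and 2.47 FPKM in Y30M. Its groups touched, its adjusted p was 0.0630 in limma, and it lost the call without either of Y6M replicates 1 and 2 or either of Y30M replicates 1 and 3 (log2 fold change 0.63 to 1.11 over the 6 fits that leave out 1 library). *RAD51C*, a gene of recombination repair, had 3.71, 3.67 and 6.77 FPKM in Y6M against 7.78, 2.16 and 9.38 FPKM in Y30M and did not pass. In both groups its level was highest in replicate 3.

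Of 26 listed genes of supporting, steroid-forming and vascular cells, 5 had a symbol and a peak here, and 5 of 5 fell, with a median log2 fold change of -1.52, against 46 of the 191 genes with a symbol and 19% of all genes tested. *SOX9*, a transcription factor of Sertoli cells, had 39.7, 40.8 and 33.8 FPKM in Y6M against 28.3, 14.4 and 17.5 FPKM in Y30M (log2 change of -0.94, SE 0.27, limma, adjusted p = 0.0273). *IGFBP4*, a binding protein of insulin-like growth factors, fell from 120.5 FPKM at the highest and 101.4 at the lowest in Y6M to 31.5, 17.3 and 24.2 FPKM in Y30M. *NOS2*, the inducible nitric oxide synthase, fell from 2.92 ± 0.520 to 0.258 ± 0.0999 FPKM. The endothelial genes *CDH5* and *PECAM1* fell from 9.85 ± 1.42 to 2.88 ± 1.12 FPKM and from 7.59 ± 2.56 to 2.45 ± 0.555 FPKM (SD, n = 3 each). Methylation of this group was mixed, since *IGFBP4*, *NOS2* and *CDH5* had hypomethylated peaks, while *SOX9* and *PECAM1* each had a hypermethylated one (0.62 and 0.89). The *PECAM1* peak was marginal, with a MeTDiff FDR of the difference of 0.127, and the other peaks of *PECAM1* lay at 0.19 and -0.46. Of the 20 writers, erasers and readers of m6A listed, 0 had both a symbol and a peak on these chromosomes.

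The largest changes among named genes with no overlap between the groups were as follows. *ST6GALNAC2*, a sialyltransferase, rose from 1.38, 1.63 and 3.10 FPKM to 40.3, 122.1 and 81.8 FPKM (log2 fold change 4.67, SE 0.44). Its single peak, 150 bp in 2 blocks from 9459516 to 9460153, had the highest shift of chromosome 19, 3.40, and was not in the Y6M list. *SPAG5*, a protein of the mitotic spindle, rose from 2.66, 5.09 and 5.57 FPKM to 120.0, 139.4 and 127.4 FPKM (4.62, SE 0.27), with 1 hypermethylated peak and 1 peak at -0.19. *TEX2*, a lipid-binding protein of the endoplasmic reticulum, rose from 13.0, 12.9 and 18.5 FPKM to 204.6, 295.7 and 308.7 FPKM (4.10, SE 0.24), and its 3 peaks all lay below 0, from -0.25 to -0.59. *FOXJ1*, the transcription factor of motile cilia, had 0.152, 0.0122 and 0.117 FPKM in Y6M against 9.76, 16.1 and 8.15 FPKM in Y30M (3.45, SE 0.31), and its peak had a shift of 1.79. On the log2(FPKM + 1) scale the change of a gene so low in Y6M is understated. The shift of the *FOXJ1* peak rests on at most 0.152 FPKM in the Y6M input libraries. None of the peaks of *ST6GALNAC2*, *SPAG5*, *TEX2* and *FOXJ1* had an FDR of at most 0.05 for its own enrichment.

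*ADGRG1*, an adhesion G protein-coupled receptor on chromosome 20, had the largest fall, from 254.0, 236.7 and 184.5 FPKM to 16.2, 12.6 and 11.1 FPKM (-3.99, SE 0.22), with a hypermethylated peak (0.59). *FKBP10*, a chaperone of collagen, fell from 45.2, 44.2 and 33.2 FPKM to 4.22, 2.30 and 2.40 FPKM (-3.42, SE 0.28), also with a hypermethylated peak (0.93). *IGFBP4* (-2.22), *SGSH*, a lysosomal sulfatase (-2.21), *WFIKKN2*, a binding protein of growth factors of the TGF-beta family (-2.13), and *ZNF423*, a zinc finger factor (-2.10), followed. Of these 6 falling genes, 5 carried a hypermethylated peak and *IGFBP4* a hypomethylated one, where 74.7% of all member DMPs were hypermethylated and nearly all named genes were covered because they carry a DMP. Of the peaks of the 6 falling genes, only that of *SGSH* had an FDR of at most 0.05 for its own enrichment. *ADGRG1*, *IGFBP4*, *SPAG5* and *TEX2* were also the named genes with the highest mean FPKM.

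**Figure D5:**
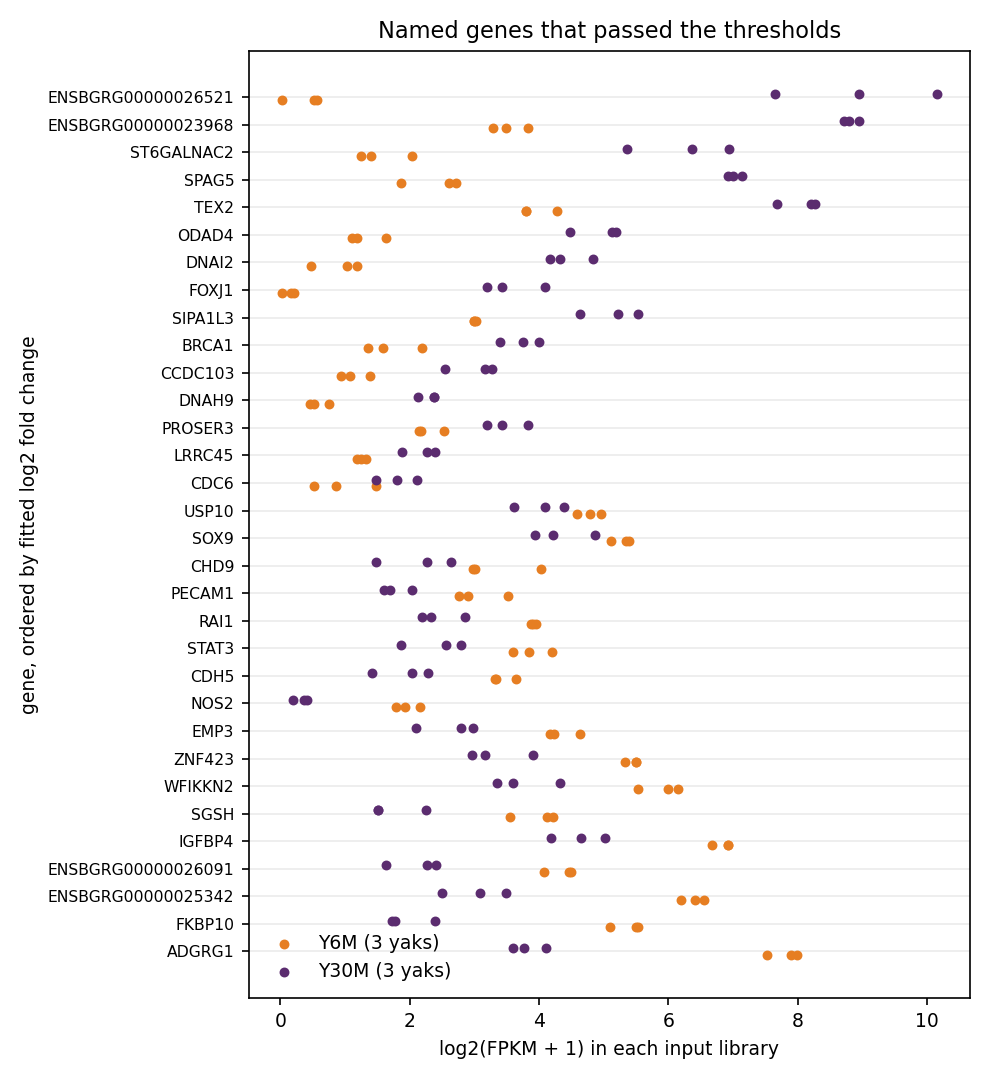
Expression as log2(FPKM + 1) (x axis) in each of the 6 input libraries for the named genes that passed the thresholds (y axis, ordered by fitted log2 fold change), with 3 orange points for Y6M and 3 purple points for Y30M; identifiers stand for genes without a symbol. The colours do not overlap within a gene except in *CDC6*, where they touch.

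Genes with hypermethylated and with hypomethylated peaks were set beside their expression. On chromosome 19, of 69 tested genes with only hypermethylated DMPs 29 rose and 11 fell, and of 28 with only hypomethylated DMPs 4 rose and 13 fell. On chromosome 20 the counts were 28 and 22 of 88 genes with hypermethylated DMPs and 10 and 7 of 35 with hypomethylated ones. On chromosome 26 they were 17 and 13 of 54 and 5 and 2 of 12. Of genes with only hypermethylated DMPs, 42.0%, 31.8% and 31.5% rose on chromosomes 19, 20 and 26. Of those with a peak but no DMP, 32.0%, 29.2% and 32.5% rose. Of genes with only hypomethylated DMPs, 46.4%, 20% and 16.7% fell, against 23.7%, 19.5% and 18.3% without a DMP. The pattern of chromosome 19, with lower expression where methylation was lower, was therefore not seen in the counts of the other 2, and the difference between the chromosomes was not tested. On the other autosomes 333 rose and 212 fell of 1026 genes with hypermethylated DMPs, and 117 and 177 of 479 with hypomethylated ones. With a peak but no DMP there, 1508 rose and 1301 fell of 5439. In percent, 37.0% of those with hypomethylated DMPs fell, against 23.9% without a DMP. For hypermethylated DMPs 32.5% rose, against 27.7% without a DMP. Lower expression with lower methylation was therefore not particular to chromosome 19. The methylation shift and the FPKM both use the input libraries, so they are not independent measurements.

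The symbols gathered here covered 0 genes of chromosome 26, so identifiers are given. The paper itself names a gene with a peak on that chromosome, *CREBBP*, which is not described here. The largest rise on that chromosome among genes with no overlap between the groups was in ENSBGRG00000026521, which had 0.483, 0.426 and 0.0146 FPKM in Y6M against 199.9, 1141.4 and 495.1 FPKM in Y30M (log2 change of 8.55, SE 0.58, limma, adjusted p = 5.27e-05). It carried 2 peaks close to each other between 36611055 and 36612518, enriched 1.42-fold and 1.58-fold, of which the first was hypermethylated (1.07). This shift rests on at most 0.483 FPKM in the Y6M input libraries. The next, ENSBGRG00000023968, rose from 13.3, 10.3 and 8.77 FPKM to 422.5, 445.2 and 492.8 FPKM (5.29, SE 0.20), and its shorter peak was hypomethylated (-0.59). ENSBGRG00000025342 fell from 92.7, 72.3 and 84.3 FPKM to 10.3, 4.62 and 7.52 FPKM (-3.36, SE 0.29) with a hypermethylated peak of 500 bp (0.79), and ENSBGRG00000026091 fell from 21.5, 21.0 and 15.9 FPKM to 4.28, 2.09 and 3.79 FPKM (-2.25, SE 0.30) with 2 hypomethylated peaks (-0.61 and -0.64). Of the peaks of these identifiers, only the one of 500 bp had an FDR of at most 0.05 for its own enrichment.

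Zinc finger genes were the family with the most named members. There were 17 with a symbol starting with ZNF, of which 15 lay on chromosome 20, and 7 rose, 2 fell and 8 did not pass, against 66 and 46 of the 191 genes with a symbol. *ZNF526* rose from 9.79 to 32.7 FPKM (means, n = 3; log2 fold change 1.65), *ZNF19* from 1.85 to 9.45 FPKM (1.83) and *ZNF382* from 2.47 to 12.02 FPKM (1.82). *ZNF423* and *ZNF226* fell, the latter from 19.7 to 6.68 FPKM (-1.48). Zinc finger genes are a multigene family with similar sequences, and how reads shared between copies were counted is not given in the sources used here.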

How the data were processed

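Testis of 3 yaks per group was measured by MeRIP-seq. Per the labels and the study's methods, the authors trimmed reads with Trimmomatic, removed rRNA with SortMeRNA, aligned to LU_Bosgru_v3.0 with HISAT2 and called peaks with MeTDiff. The deposited peak table gives exon blocks, a fold enrichment over input, and columns of the authors' own comparison of the groups, which are a log2 fold change with p-value and FDR as log10 values. These comparison columns were used as the methylation shift because no replicate values per peak were at hand. The log2 column appears with both signs. The one used was positive in 75.7% of 185 peaks that overlapped only the Y30M list of chromosomes 1 and 2 and in 31.1% of 219 that overlapped only the Y6M list. The deposited site list gives each adenosine a score, a fraction from 0 to 1, and the tool behind it is not given in the sources used here. The Y30M list was used for chromosomes 1 and 2 only. The authors deposited FPKM per gene and input library, and the tool behind it is not given in the sources used here. FPKM summed to 587932 to 702778 per library, and read depth is unknown.

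Expression was fitted with limma 3.58.1 in R 4.3.3 on log2(FPKM + 1) with a variance trend, over genes above 0 in at least 1 of 6 libraries, two-sided, with Benjamini-Hochberg adjusted p-values over 19477 genes, and the script was tested on simulated data. The p-values measure the spread between 3 animals per group. Other values were computed in Python 3 with pandas and have no test. Libraries with the same replicate number deviated together from their group means (correlations of 0.21, 0.28 and 0.60 for numbers 1, 2 and 3). Numbers 1 and 2 correlated as highly with each other (0.25 and 0.32), so only replicate 3 was told apart by its number. Nothing in the labels says what libraries of the same number share, so the main fit did not pair them. The replicate number was a block in an alternative fit only. Replicate 3 went against the others (-0.29 to -0.47). Positions are 1-based on LU_Bosgru_v3.0, and no genome or gene model of that build was used, so where a block lies in its transcript was not analysed here.

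The chromosomes and gene lists were chosen with earlier results of these data known. Genes named are those with a symbol in the study's supplementary annotation that had the 6 highest numbers of peaks, the 6 largest and 6 smallest shifts among DMPs with an own FDR of at most 0.05, the 6 largest and 6 smallest log2 fold changes among called genes without overlap, the 4 highest mean FPKM, a place in a gene list, or the 4 highest enrichments at that FDR, and up to 2 identifiers that rose and 2 that fell. Families by symbol start were ZNF, HOXB, KRT, SLC, KIF, DNAH, USP, TRIM, RPL and RPS, and PSM.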

Additional observations from a re-analysis of the deposited data

How the results depend on the processing

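The number of member genes higher in Y30M was 371 to 477 under the scaling, pseudocount and filter alternatives, against 412, and the number lower was 229 to 327, against 281. With the replicate number as a block the numbers were 432 and 309, and the block ended no call among the 45 named genes and identifiers and added 2, *SPAG9* and *ZFHX3*. Leaving out 1 library gave 349 to 418 and 223 to 314, and moved the difference in median log2 fold change from the other autosomes between 0.0148 and 0.226. With an own FDR of at most 0.05, density was 9.09 peaks per Mb and peaks per gene 1.66, while without genes of 6 or more peaks the latter was 1.69. Single-block peaks had a median of 251 bp. The median shift was 0.722 among DMPs alone and 0.0261 after centring on the median of all peaks. At a fold change of at least 2, 78 hypermethylated and 18 hypomethylated peaks were left, and with an own FDR of at most 0.05, 170 and 59. The site share was 10.9% at a score of at least 0.6 (9.15% on the other autosomes), 35.6% as a mean over peaks (30.4%), and 43.8% inside and 24.2% outside exon blocks, the last 2 chosen after seeing the data. Among the refits of named genes, 637 kept direction and call, 12 gained and 19 lost the call and 6 changed sign. The sign turned in genes that had not passed, *GSDMA* (0.00201 with a pseudocount of 0.1, 0.00999 in TPM, 0.0182 without replicate 3 of both groups, -0.175 to 0.0768 without single libraries), *DEDD2* (-0.15 to 0.61) and *RAD51C* (-0.0743 to 0.78). The cause was not tested. FPKM without counts limits the precision of low genes, and peak values have no replicate error.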

Other observations

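Further gene families by symbol start had few named members on chromosomes 19, 20 and 26. *KIF1C*, a kinesin motor of vesicle transport, had 40.6, 38.6 and 28.2 FPKM in Y6M against 15.4, 7.49 and 8.50 FPKM in Y30M, with no overlap (log2 change of -1.73, SE 0.31, limma, adjusted p = 0.00343). Both deubiquitinases with a symbol fell. *USP43* had 4.17, 4.04 and 3.61 FPKM in Y6M against 0.363, 0.459 and 0.169 FPKM in Y30M (-1.90, SE 0.20). *USP10* had 26.7, 23.004 and 30.2 FPKM and 19.99, 11.3 and 16.1 FPKM (-0.75, SE 0.26), and its adjusted p was 0.0521 in limma; it was not called in TPM or without any of Y6M replicate 1, Y6M replicate 3 and Y30M replicate 2. *KRT10*, an intermediate filament keratin, rose from 4.87, 3.92 and 6.87 FPKM to 9.95, 11.4 and 14.7 FPKM (1.08, SE 0.30). Of 2 solute carriers, *SLC47A1*, an efflux transporter of organic cations, fell from 6.82, 5.03 and 6.68 FPKM to 2.69, 1.99 and 1.40 FPKM (-1.26), while *SLC12A4*, a potassium chloride cotransporter, had 21.7, 20.1 and 14.98 FPKM and 17.4, 22.97 and 15.6 FPKM. *TRIM25*, a ubiquitin ligase, had 11.6, 14.6 and 12.4 FPKM and 10.2, 5.33 and 8.33 FPKM and did not pass. The only dynein heavy chain with a symbol was *DNAH9*, and 0 genes of the HOXB, PSM, RPL and RPS groups had a symbol and a peak. Only 191 of the 1340 genes had a symbol, so genes of these groups may carry a peak without being counted.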
